A study of Mus musculus with 41 samples.

Results

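Zinc finger genes Zfp600 to Zfp999 are the higher-numbered stretch of the mouse Zfp naming series. Many genes of that series encode proteins with repeated C2H2 zinc fingers. They were taken as the protein-coding RefSeq genes of assembly GRCm38.p6, on chromosomes 1 to 19, whose symbol is Zfp followed by a number and lies between Zfp600 and Zfp999, both included. The rule used no measured value. It gave 170 genes (the members) of 21887 protein-coding genes in all. Every autosome held at least 1 member, with 36 on chromosome 7, 22 on chromosome 17, 17 on chromosome 4, 16 on chromosome 8 and 14 on chromosome 2. A member was called clustered when another member lay within 200 kb of it, which held for 107 members in 29 clusters, and single otherwise, which held for 63. Gene bodies of the members had a median length of 18.2 kb (range 2.52 to 479 kb), against 17.2 kb for the other protein-coding genes.

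Histone modifications had been mapped by chromatin immunoprecipitation and sequencing in cartilage cells sorted by flow cytometry from mouse embryos. Hypertrophic chondrocytes (HC), the enlarged cells that end the growth-plate sequence, came from cartilage of E15.5 embryos that carried the transgene Tg(Col10a1-cre)1427Vdm. Proliferating chondrocytes (PC), the dividing cells that precede them, came from cartilage of E13.5 embryos that carried the transgene Tg(Col2a1-cre)1Star. The reporter allele of HC and PC embryos alike was Gt(ROSA)26Sortm1(EYFP)Cos, an EYFP in the Rosa26 locus. In both strains a Cre recombinase, under Col10a1 or Col2a1 regulatory sequence, acts on that reporter, and once recombined it stays on in a cell's descendants. Cell type, age and strain changed together and cannot be told apart. Each of 6 marks had 2 HC and 3 PC libraries, called by cell type and title number. Whether the libraries of 1 group stem from different litters or sorts is not stated, so each p-value speaks for the spread of these libraries alone, and that spread may be technical.

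Many proteins of this series carry a KRAB domain. That domain recruits the co-repressor TRIM28 and through it the methyltransferase SETDB1, the enzyme that writes H3K9me3 at transposable elements. The genes themselves lie largely in tandem clusters that arose by duplication, and in human and mouse cells many of them carry H3K9me3 over the exon that encodes the finger array. H3K36me3 is written by SETD2 in the bodies of transcribed genes, whereas H3K4me3, H3K9ac and H3K27ac mark active promoters and H3K27me3 is the mark of Polycomb repression.

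The deposited lists give region coordinates with no height or read count, so the measure is the percent of a gene body, or of a promoter window, that lay in regions. A gene body was called marked at 25% or more. A promoter window, 2 kb either side of the gene end that carried H3K4me3 in at least 1 library, was called marked at 200 bp or more, and both ends were used where neither or both carried it. H3K4me3 picked 1 end for 123 members, both ends for 15 and neither end for 32. Over all 21887 genes it picked 1 end for 11518, both for 3237 and neither for 7132. Windows at 2 ends, which have more sequence to be marked in, were thus less frequent among members. For 107 of the 109 members with an annotated strand and 1 such end, that end was the annotated 5′ end. The bodies of 22 members overlap another protein-coding gene, and there a region cannot be assigned to either gene. Among these members are Zfp687 (with Pi4kb), Zfp708 (with Rslcan18), Zfp750 (with Tbcd), Zfp809 (with Zfp599), Zfp830 (with Cct6b) and Zfp706. Zfp953 (with Zfp595) and Zfp965 (with Gm4724) belong here too. In the chromosome 4 cluster described below, Zfp981 overlaps Zfp993, and Zfp978 overlaps Zfp991 and Zfp988. There 1 region can count for more than 1 member. A region list does not tell fewer marked cells from a weaker mark in each cell. H3K9me3 lists covered 133 to 242 Mb in HC and 196 to 238 Mb in PC, and 2 lists of this mark shared 0.177 to 0.319 of their combined bases. H3K36me3 lists covered 379 to 475 Mb in HC and 481 to 612 Mb in PC, with a shared fraction of 0.442 to 0.637. Markers were in part with and in part against the labels. Summed over the chondrocyte list (Col2a1, Acan, Sox9, Col9a1, Col11a2, Matn1, Hapln1), the H3K27ac promoter coverage was 278 to 359 percentage points in HC libraries and 533 to 571 in PC libraries, and H3K4me3 336 to 424 in HC and 438 to 494 in PC. Within that list Col2a1, the collagen of proliferating cartilage, went the other way, with an average of 79.4% H3K4me3 promoter coverage in HC and 8.33% in PC (limma adjusted p = 0.00497). Summed over Col10a1, Ihh, Runx2, Mmp13 and Panx3, the hypertrophic list, the H3K27ac promoter coverage was 10.2 to 28.9 percentage points in HC libraries and 91.3 to 125 in PC libraries. Within that list Col10a1 went the other way, with an average of 18.9% H3K27ac promoter coverage in HC and 1.31% in PC (limma adjusted p = 0.548). H3K27me3 at the Col10a1 promoter was also higher in HC, 51.3% against 0% (limma adjusted p = 0.0335). Muscle markers (Myod1, Myf5, Myog, Cdh15) summed to 57.7 to 132 points of H3K27ac in HC libraries and 3.06 to 15.3 in PC libraries. The part of these differences in the results below was not tested.

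Promoter sequences of 7 members are shown because they stand for the main chromatin classes found. They are RefSeq windows of GRCm38.p6, 250 bases before to 50 after the annotated start, 5′ to 3′ on the gene's strand, with each CG dinucleotide in capitals. Zfp943 (chr17:21962309-21962608, plus strand, 21 CG) and Zfp809 (chr9:22225453-22225752, plus strand, 11 CG) had H3K4me3 at the promoter and both H3K9me3 and H3K36me3 over the body in every library. Zfp976 (chr7:42642555-42642854, minus strand, 10 CG) had the same 3 marks in every library, whereas Zfp936 (chr7:43177340-43177639, plus strand, 6 CG) had H3K9me3 over its body and no H3K4me3 or H3K36me3 in any. Zfp687 (chr3:95015408-95015707, minus strand, 15 CG) had H3K36me3 and no H3K9me3. Zfp648 (chr1:154200937-154201236, plus strand, 4 CG) had H3K4me3 in its promoter window in PC libraries alone. Zfp966 (chr2:175931051-175931350, minus strand, 5 CG) had no region of any mark, and its window is identical to that of Zfp967.
Zfp943: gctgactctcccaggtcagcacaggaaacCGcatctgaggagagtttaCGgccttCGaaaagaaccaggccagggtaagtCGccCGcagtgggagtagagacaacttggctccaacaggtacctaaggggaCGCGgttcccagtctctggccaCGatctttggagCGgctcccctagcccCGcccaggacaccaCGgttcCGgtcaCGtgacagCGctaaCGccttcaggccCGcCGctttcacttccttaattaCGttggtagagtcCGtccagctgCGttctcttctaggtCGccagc
Zfp809: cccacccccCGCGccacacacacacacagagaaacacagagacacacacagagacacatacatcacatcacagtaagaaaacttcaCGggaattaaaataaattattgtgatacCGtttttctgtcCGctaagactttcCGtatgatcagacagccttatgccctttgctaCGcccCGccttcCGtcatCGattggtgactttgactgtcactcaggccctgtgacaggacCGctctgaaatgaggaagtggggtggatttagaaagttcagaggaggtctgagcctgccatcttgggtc
Zfp976: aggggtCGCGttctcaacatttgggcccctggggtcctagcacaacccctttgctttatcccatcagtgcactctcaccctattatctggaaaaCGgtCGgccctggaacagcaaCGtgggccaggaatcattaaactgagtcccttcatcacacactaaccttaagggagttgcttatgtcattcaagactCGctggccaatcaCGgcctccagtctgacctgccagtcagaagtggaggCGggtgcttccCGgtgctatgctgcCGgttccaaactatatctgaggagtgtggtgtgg
Zfp936: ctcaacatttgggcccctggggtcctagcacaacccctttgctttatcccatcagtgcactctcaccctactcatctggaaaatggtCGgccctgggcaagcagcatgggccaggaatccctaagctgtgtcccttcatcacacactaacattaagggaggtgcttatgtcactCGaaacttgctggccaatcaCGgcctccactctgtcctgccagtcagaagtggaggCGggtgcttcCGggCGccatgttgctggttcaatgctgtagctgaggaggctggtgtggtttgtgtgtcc
Zfp687: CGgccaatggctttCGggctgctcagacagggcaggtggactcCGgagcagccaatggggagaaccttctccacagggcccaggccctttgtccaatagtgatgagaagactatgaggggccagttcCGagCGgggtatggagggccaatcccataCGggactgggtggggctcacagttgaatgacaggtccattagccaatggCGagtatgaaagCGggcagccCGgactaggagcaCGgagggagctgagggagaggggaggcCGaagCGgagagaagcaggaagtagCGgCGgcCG
Zfp648: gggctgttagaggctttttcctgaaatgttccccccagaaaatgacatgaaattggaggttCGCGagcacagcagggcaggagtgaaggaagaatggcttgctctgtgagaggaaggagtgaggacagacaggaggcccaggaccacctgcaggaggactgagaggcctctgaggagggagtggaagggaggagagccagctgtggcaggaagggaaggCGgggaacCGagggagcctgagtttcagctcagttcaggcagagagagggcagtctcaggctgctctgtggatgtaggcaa
Zfp966: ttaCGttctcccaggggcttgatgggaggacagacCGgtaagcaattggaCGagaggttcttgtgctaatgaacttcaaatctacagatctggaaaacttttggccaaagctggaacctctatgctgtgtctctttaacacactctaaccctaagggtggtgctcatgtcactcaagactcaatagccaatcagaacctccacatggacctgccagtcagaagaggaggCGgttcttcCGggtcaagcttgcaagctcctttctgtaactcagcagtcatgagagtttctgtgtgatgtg
The windows of Zfp936 and Zfp976 were 83% identical when aligned end to end. The RefSeq start of Zfp936 lies 63.4 kb inside the annotated gene body, and that body held 0% H3K4me3 in all 5 libraries.

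H3K9me3, the mark of constitutive heterochromatin, covered the bodies of these genes far more often than those of other genes. In HC libraries 2 and 5, 41.2% and 41.2% of the 170 members were marked, and in PC libraries 2, 3 and 6 the share was 42.9%, 40.6% and 41.8%. Among the other 21717 protein-coding genes the share was 8.59% and 7.19% in HC and 9.47%, 8.85% and 10.9% in PC. The 190 genes Zfp1 to Zfp599, the lower-numbered stretch of the series, lay between, at 28.9% and 27.9% in HC and 34.7%, 31.1% and 31.6% in PC. In every library the member share exceeded that of both other groups. No test of this gap was made, since genes are not replicates.

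Clustered members were marked by H3K9me3 more often than single members in each of the 5 libraries. The share was 47.7% and 48.6% of clustered members in HC and 46.7%, 45.8% and 46.7% in PC. For single members it was 30.2% and 28.6% in HC and 36.5%, 31.7% and 33.3% in PC. Counted over all 5 libraries together, 41 of 107 clustered members (38.3%) and 15 of 63 single members (23.8%) were marked in every library. Clusters drawn at 100 kb or 500 kb in place of 200 kb gave 38.5% to 41.6% for clustered and 20.8% to 23.5% for single members.

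**Figure D1:**
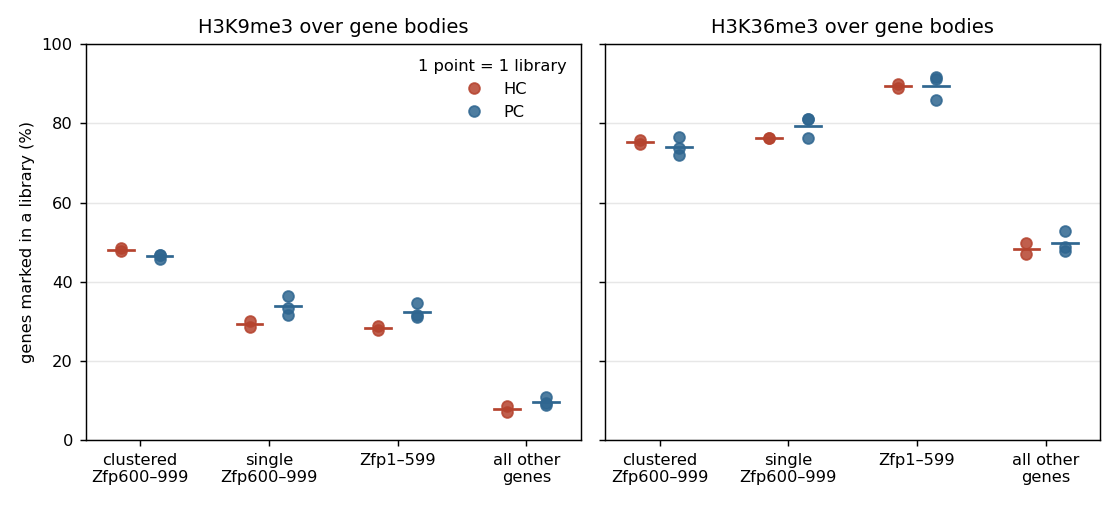
Percent of genes whose body is marked (25% or more in regions) by H3K9me3, left, and by H3K36me3, right, for clustered and single Zfp600 to Zfp999 genes, Zfp1 to Zfp599 and all other protein-coding genes; each point is 1 library, HC left of PC, and each line is the mean. Clustered genes sit at 45.8% to 48.6% for H3K9me3, above the single genes at 28.6% to 36.5% and the other genes at 7.19% to 10.9%.

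H3K36me3, the mark of transcribed bodies, was also more frequent on members than on other genes, with the order of the Zfp groups turned round. It marked 75.3% and 75.9% of members in HC libraries 5 and 7 and 78.2%, 73.5% and 76.5% in PC libraries 4, 5 and 6. Other protein-coding genes stood at 47.1% and 49.7% in HC and 48.9%, 47.9% and 52.7% in PC. Zfp1 to Zfp599 were higher than the members in each library, at 88.9% and 90% in HC and 91.6%, 85.8% and 91.1% in PC. In all 5 libraries H3K36me3 marked 117 members and in none it marked 31, whereas H3K9me3 marked 56 in all 5 and 85 in none. H3K36me3 marked 68.2% of clustered and 69.8% of single members in every library.

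Active promoter marks were found at most members in both cell types. H3K4me3 marked the promoter window of 79.4% and 77.6% of members in HC libraries 2 and 5 and of 79.4%, 80% and 78.2% in PC libraries 1, 2 and 7. For other genes the range was 63.1% to 64.9% in HC and 63% to 65.6% in PC, and Zfp1 to Zfp599 stood above the members, at 90.5% in both HC libraries and 91.1% to 91.6% in PC. H3K9ac marked 75.3% of members in both HC libraries and 74.7% to 78.2% in PC libraries, against 88.9% to 89.5% and 88.4% to 91.6% of Zfp1 to Zfp599 and 58.8% to 59.4% and 57.6% to 62.7% of other genes. H3K27ac marked 67.1% to 72.9% of members in HC and 72.9% to 77.1% in PC, against 87.4% to 88.9% and 88.9% to 91.6% of Zfp1 to Zfp599 and 58.6% to 61.6% and 60.4% to 63.6% of other genes. H3K27me3 was the rare mark, at 14.1% to 18.2% of member promoters in HC and 14.7% to 18.8% in PC, against 21.4% to 23.7% and 20.6% to 22.3% of other genes. Zfp1 to Zfp599 were lower still, at 8.42% to 8.95% in HC and 7.89% to 10% in PC. These windows span 2 gene ends more often in other genes than in members. At the annotated 5′ end alone, H3K27me3 marked 9.46% to 14.9% of the 148 stranded members and 17.7% to 20.5% of other stranded genes. At the 3′ end it marked 19.6% to 28.4% of members and 8.05% to 10.1% of others. Over gene bodies the order also differed from that at promoters. H3K27me3 marked 9.41% to 12.4% of member bodies in HC and 14.7% to 15.9% in PC. Other genes stood at 9.82% to 10.8% and 7.85% to 9.49%, and Zfp1 to Zfp599 at 11.1% to 12.6% and 12.6% to 14.2%. At promoter windows all 5 libraries agreed on H3K4me3 for 130 marked members, on H3K9ac for 120, on H3K27ac for 111 and on H3K27me3 for 14. When each list was reduced to the length of the shortest list of its mark, keeping the longest regions, these counts fell to 57, 58, 31 and 8, since narrow regions were dropped.

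H3K9me3 and H3K36me3, which elsewhere in the genome tend to lie on different genes, were found together on 46 members (27.1%) in every library of both marks. The same held for 40 of 190 Zfp1 to Zfp599 genes (21.1%) and for 167 of 21717 other genes (0.769%). H3K36me3 without H3K9me3 in any library was found on 51 members, H3K9me3 without H3K36me3 on 7 and neither on 18. The other 48 members crossed the 25% limit in some libraries and not in others. With a limit of 50% in place of 25%, both marks were found in every library on 22 members. Read the other way, 46 of the 56 members with H3K9me3 in every library also had H3K36me3 in every library (82.1%), as did 40 of 41 Zfp1 to Zfp599 genes (97.6%) and 167 of 807 other genes (20.7%).

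**Figure D2:**
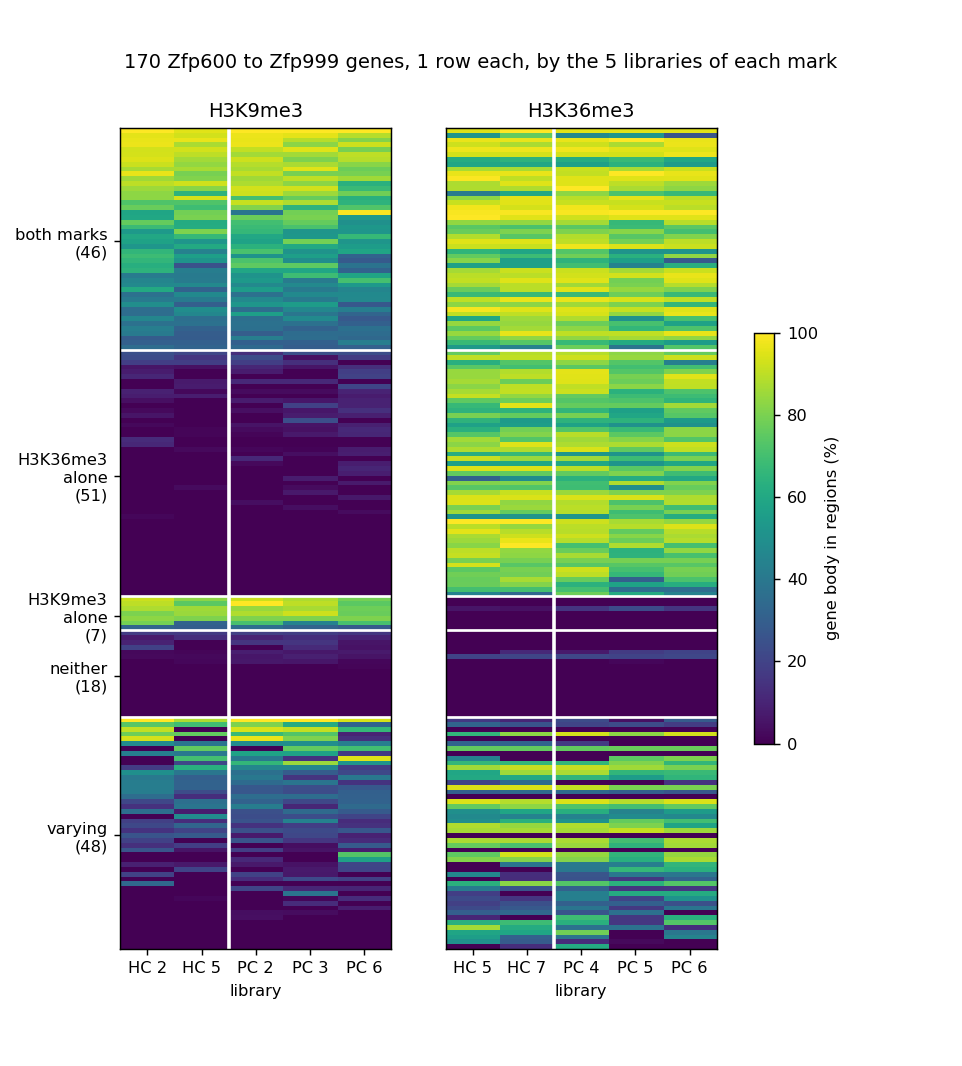
Percent of the gene body in H3K9me3 regions, left, and H3K36me3 regions, right, for each of the 170 genes (rows, grouped by the marks they carry in all 5 libraries) in each library (columns, HC left of PC). The 46 rows at the top are covered by both marks in all libraries, the next 51 by H3K36me3 alone, and the 18 rows marked neither are dark in both panels.

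The members with both marks had active promoters as a rule. H3K4me3 was present in every library at 44 of the 46, H3K9ac at 42 and H3K27ac at 35. The exceptions for H3K4me3 were Zfp708 and Zfp951. Of the 51 members with H3K36me3 alone, 47 had H3K4me3, 47 H3K9ac and 46 H3K27ac in every library. The 2 body marks also overlapped in base pairs. Of the member body length in H3K9me3 in at least 2 libraries, 56.4% in HC and 57.4% in PC also lay in H3K36me3. For Zfp1 to Zfp599 that overlap was higher, 95.2% in HC and 93.6% in PC, and for the other genes lower, 36.2% in HC and 46.2% in PC. Counted within a cell type, 52 members (30.6%) in HC and 59 (34.7%) in PC had both marks in at least 2 libraries of each, where 3 PC libraries give more chances than 2 HC libraries. When all 3 PC libraries were required the PC count was 47. No comparison with equal numbers of libraries was made.

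Zfp942 had the longest stretch of both marks. Its body (chr17:21926960-21962503) lay 93% and 93.2% in H3K9me3 in HC and 90.7%, 95.2% and 79.5% in PC, and 97.5% and 97.5% in H3K36me3 in HC and 97.7%, 95.5% and 95.2% in PC. Both marks together covered 32.2 kb of its 35.5 kb in each cell type. Its neighbour Zfp943, which shares a promoter region with it (starts 55 bp apart), lay 85.4% and 82.4% in H3K9me3 in HC and 93%, 93% and 67.8% in PC. Their shared promoter window had 55% and 50% H3K4me3 in HC and 60%, 45% and 35% in PC. A pair of genes read in opposite directions from 1 promoter carried the same 3 marks.

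Zfp606, whose human counterpart has been reported to bind the cartilage factor SOX9, had the highest H3K9me3 coverage of all members. Its body (chr7:12478280-12496235) lay 100% and 95.5% in H3K9me3 in HC and 100% in each PC library. H3K36me3 covered 94.9% and 100% of it in HC and 95.5% in each PC library. H3K4me3 still covered 50% and 35% of its promoter window in HC and 57%, 50% and 40% in PC. H3K9me3 reached into that window, to 80% and 80% in HC and 100% in all 3 PC libraries, a gap that did not pass in the fit of all libraries (limma adjusted p = 0.61).

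Zfp809 encodes a KRAB protein that recognises the primer binding site of murine leukaemia virus and silences the provirus in stem cells. Its body lay 52.4% and 60.9% in H3K9me3 in HC and 63.7%, 60.9% and 55.2% in PC. H3K36me3 covered 91.8% and 91.6% in HC and 97.4%, 94.6% and 91.8% in PC. Its promoter window held no H3K9me3 in any library, and H3K4me3 covered 50% and 35% of it in HC and 40%, 35% and 35% in PC. HC and PC values overlapped or touched for each of these marks.

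Zfp932, which binds endogenous retroviruses in mouse stem cells, carried H3K9me3 over 77.8% and 76.1% of its body in HC and 67.7%, 72.7% and 10.1% in PC. PC library 6 stood far below the other 4 libraries. H3K36me3 covered 66% and 82.9% of Zfp932 in HC and 93%, 82.9% and 93% in PC. Zfp708, another KRAB gene whose product binds a retroviral long terminal repeat, had both marks at 31.5% to 42.7% H3K9me3 and 66.4% to 86% H3K36me3 over all libraries, without H3K4me3, H3K9ac or H3K27ac in the window at either gene end. Inside its body all 3 were present in every library, H3K4me3 over 4.90% to 6.30%, H3K9ac over 4.90% to 5.60% and H3K27ac over 4.20% to 6.30%, and the body overlaps that of Rslcan18.

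Other members with roles known from mouse or human work fell into the class with H3K36me3 and little or no H3K9me3. Zfp687, whose human counterpart is mutated in Paget disease of bone, had 0% H3K9me3 in all 5 libraries, with H3K36me3 at 85.2% and 96.5% in HC and 89%, 77.7% and 89% in PC. Zfp609, a partner of the cohesin loader NIPBL in neural progenitors, reached at most 9.41% H3K9me3 in any library, with H3K36me3 at 75% and 78% in HC and 73.3%, 72.1% and 65.6% in PC. Its relative Zfp608 had 63.5% and 78.8% H3K36me3 in HC and 72.7%, 67.3% and 82.6% in PC. Zfp618, which binds the methyl-DNA reader UHRF2, and Zfp622, a ribosome assembly factor, had H3K36me3 over 68.6% or more of the body in all 5 libraries. Zfp706, a factor of stem cell differentiation, had 82.6% to 90.3%. Zfp638, a silencer of unintegrated retroviral DNA that also acts in adipocyte differentiation, had 57.4% and 55.8% in HC and 57.8%, 50.5% and 50.5% in PC.

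Over these 7 genes H3K9me3 covered at most 21% of the body in any library. Zfp661, which binds at protocadherin genes, was less even, with H3K36me3 at 56% and 30.3% in HC and 38.5%, 0% and 44.9% in PC. Zfp819, a silencer of retrotransposons in germ and stem cells, had neither body mark in any list. H3K4me3 marked its promoter all the same, at 30% and 10% in HC and 25%, 20% and 10% in PC.

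**Figure D3:**
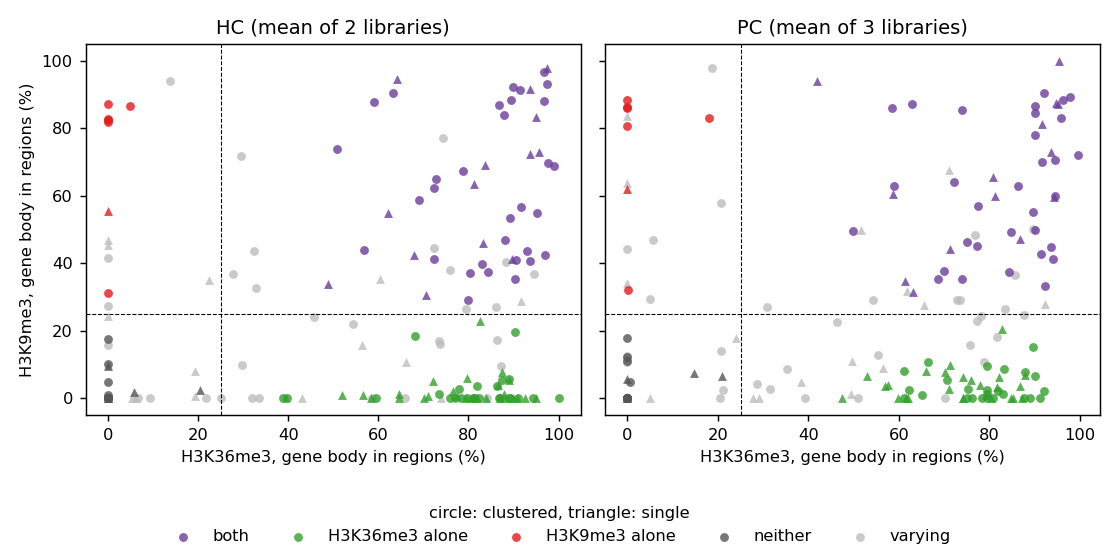
Percent of the gene body in H3K36me3 regions (x axis) against H3K9me3 regions (y axis) for the 170 genes, as the mean of the 2 HC libraries, left, and of the 3 PC libraries, right; dashed lines stand at 25%, circles are clustered and triangles single genes, and colours give the class over all libraries. The 46 genes with both marks fill the upper right, the 7 with H3K9me3 alone sit at the upper left, and the 51 with H3K36me3 alone lie along the lower right.

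H3K27me3 lay in addition over the body of 6 of the 46 members with both marks in every library: Zfp933, Zfp930, Zfp709, Zfp873, Zfp938 and Zfp763. In at least 1 library it marked the body of 26 of the 46, and of 1 of the 51 members with H3K36me3 alone. Zfp873 had H3K27me3 over 86.4% and 78.3% of its body in HC and 78%, 75.6% and 81% in PC. Its H3K9me3 coverage was 94.9% and 86.1% in HC and 92.2%, 80.7% and 88.8% in PC, and its H3K36me3 coverage 61.8% and 64.8% in HC and 62.1%, 67.5% and 59.4% in PC. The lowest of these values for the 3 marks sum to more than the whole body taken 2 times, so part of the gene lay in regions of all 3. Zfp938, next to it on chromosome 10, had 33.8% and 48.4% H3K27me3 in HC and 82.5%, 82.5% and 72.7% in PC, a gap that was not tested. Zfp763 had 62.6% and 43.2% in HC and 67.4%, 67.4% and 57.7% in PC. Among genes with H3K9me3 in every library, H3K27me3 in every library was found on 7 of 56 members (12.5%) and on 345 of 807 other genes (42.8%). For Zfp1 to Zfp599 it was 8 of 41 (19.5%).

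H3K9me3 was not spread evenly along the members. Over the 148 members with an annotated strand, 12.8% in HC and 14.2% in PC were in an H3K9me3 region at the first of 20 equal bins of the body. At the last bin the share was 38.9% in HC and 42.3% in PC. Windows of 2 kb either side of the 5′ end were marked in 24.3% and 25% of members in HC and 25.7%, 31.1% and 32.4% in PC. At the 3′ end the share was 47.3% and 43.2% in HC and 50.7%, 50.7% and 56.8% in PC. For other genes the ends differed little, at 10.9% to 30.1% for the 5′ and 10% to 27.6% for the 3′ end. Zfp1 to Zfp599 had the shape of the members, at 9.15% to 26.8% for the 5′ and 32% to 47.7% for the 3′ end.

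H3K36me3 also started low on members, at 12.2% in HC and 12.6% in PC over the first bin, and reached 70.9% in both cell types at 82.5% of the body length. H3K4me3 had the reverse shape, with 5′ windows marked in 77.7% to 80.4% of members and 3′ windows in 5.41% to 6.76%. Other genes had both shapes too. Their H3K36me3 share was 27% to 38.2% of 5′ and 50.2% to 55.8% of 3′ windows. Members had 41.9% to 55.4% and 69.6% to 75%. For H3K4me3 other genes stood at 60.9% to 63.4% and 11.9% to 14.7%. Zfp1 to Zfp599 had H3K36me3 at 41.8% to 64.1% of 5′ and 84.3% to 88.2% of 3′ windows. Their H3K4me3 shares were 89.5% to 91.5% and 9.8% to 11.1%. On members the lists thus placed H3K4me3 at the 5′ end, where H3K9me3 was rarest, and both body marks towards the 3′ end. In C2H2 zinc finger genes the finger array is usually encoded by the last exon. Which exons the regions covered was not tested.

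**Figure D4:**
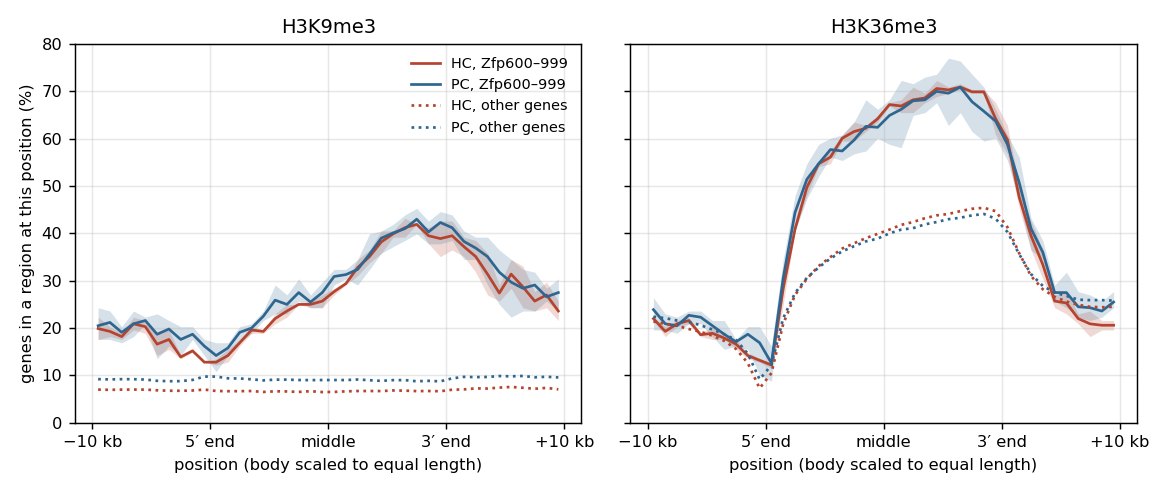
Share of genes in an H3K9me3 region, left, or an H3K36me3 region, right, along the gene from 10 kb before the 5′ end to 10 kb after the 3′ end, with the body scaled to equal length; solid lines are the means of the 148 stranded Zfp600 to Zfp999 genes, shading spans the libraries, and dotted lines are the means of all other stranded genes. H3K9me3 lies at 12.8% (HC) and 14.2% (PC) just inside the 5′ end and at 38.9% (HC) and 42.3% (PC) before the 3′ end, while the other genes stay flat.

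Widest single H3K9me3 regions over marked members had a median of 16.4 and 11.2 kb in HC and 14.4, 14.4 and 8.8 kb in PC. Over other marked genes the median was 7.2 and 6.4 kb in HC and 6.4, 6.4 and 4 kb in PC. Marked Zfp1 to Zfp599 genes lay between, at 10.4 and 8 kb in HC and 8.8, 8.8 and 7.2 kb in PC. Within the 29 clusters, H3K9me3 covered 36.6% and 33.8% of the bodies of members in HC and 37.6%, 36.2% and 30.6% in PC. It covered 27.6% and 23.8% of the sequence between them in HC and 31.4%, 29.2% and 23% in PC. H3K36me3 covered 40.7% and 41.9% of bodies in HC and 43.3%, 38.8% and 39.9% in PC. Between them it covered 20.8% and 22.6% in HC and 22.9%, 21.6% and 22.1% in PC. The sequence between members can hold other genes, so these shares do not measure confinement to genes. The chromosome 4 cluster described below made up 997 kb of the 2.86 Mb of bodies. Only 3.71% to 4.92% of its bodies lay in H3K36me3.

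The 6 clusters of at least 5 members did not share 1 pattern. The largest, with 13 members from Zfp677 to Zfp946 (chr17:21383707-22456689), held 7 members with both marks and 2 with H3K36me3 alone, and 12 of the 13 had H3K4me3 at the promoter in every library. H3K9me3 covered 37% and 35.9% of its whole span in HC and 41.4%, 38.8% and 27.6% in PC. H3K36me3 covered 33.1% and 32.9% in HC and 35.8%, 32.5% and 31.5% in PC.

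The cluster on chromosome 4 (chr4:146449030-147849126, 11 members from Zfp992 to Zfp933) carried mostly H3K9me3. H3K9me3 covered 36.3% and 33.5% of the span in HC and 38.1%, 36% and 30.2% in PC, much as on chromosome 17. H3K36me3 covered only 3.37% and 3.09% in HC and 3.31%, 3.94% and 3.49% in PC. Of the 11 members 5 had H3K9me3 alone, 1 both marks, 3 neither and 2 varied, and 3 had H3K4me3 at the promoter in every library. Zfp992 lay 80.4% and 85.1% in H3K9me3 in HC and 88.2%, 92.2% and 77.3% in PC, with 0% H3K36me3 in all 5 libraries. Of all 7 members with H3K9me3 alone, 5 lay in this cluster, and the other two were Zfp936 on chromosome 7 and Zfp996 on chromosome 12.

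The cluster from Zfp771 to Zfp629 (chr7:127242996-127615785, 7 members) was the opposite case. H3K36me3 covered 53.1% and 51.6% of it in HC and 53.3%, 50.6% and 49.8% in PC, while H3K9me3 covered 0.644% and 5.36% in HC and 9.01%, 8.37% and 8% in PC. All 7 members had H3K4me3 at the promoter in every library and none had both body marks in every library. The remaining 3 clusters mixed both classes. Zfp868 to Zfp866 (chr8:69610654-69774911) had 3 of 5 members with both marks, Zfp871 to Zfp763 (chr17:32765496-33033381) 3 of 6, and Zfp712 to Zfp738 (chr13:67038594-67683512) 3 of 6.

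No region of any mark in any of the 30 lists touched 8 members or the 2 kb around them (4.71%, against 7.69% of other genes). Zfp968, Zfp965, Zfp966, Zfp967 and Zfp973 lay in 1 stretch of 1518 kb on chromosome 2 (chr2:175180801-176699200) that was free of regions in all lists. Zfp972, Zfp987 and Zfp781 lay in free stretches of 59.4, 92.8 and 192 kb. The promoter window of Zfp966 printed above is 100% identical to that of Zfp967, and those of Zfp968 and Zfp973 are 99.7% identical. Of 35 members with at least 50% of their promoter 20-mers found in another gene's promoter, 7 were region-free and 18 had H3K4me3 in every library, against 1 and 96 of the 113 members with fewer. Reads from near-identical copies may map to several places, and how the authors placed them is not given in the sources used here, so an empty stretch was not told apart from an unmappable one. The windows of Zfp758 and Zfp943 are 94.8% identical, and both genes carried all 3 marks. Mappability was not tested.

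CpG content of the promoter differed between the chromatin classes. The median was 11 CG per 300 bases in the members with both marks, 16.5 with H3K36me3 alone, 6 with H3K9me3 alone, 5 with neither and 8 in the varying class. Over all 148 members with a RefSeq window it was 10, over 153 Zfp1 to Zfp599 genes 15 and over 17344 other genes 13. With 10 or more CG, 78 of 83 members had H3K4me3 in every library, and with fewer 36 of 65 did. Zfp687 with 15 CG and Zfp936 with 6 CG, printed above, are examples of either side. The RefSeq start lay within 2 kb of the annotated 5′ gene end for 137 of the 148.

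The comparison the design sets up, HC against PC, called no member for any mark. Covered percent was fitted by limma over all genes above 0 in 2 or more libraries, and p-values were adjusted by Benjamini-Hochberg over all of those genes, with calls at 0.05. For H3K9me3 bodies 0 of 117 members tested were called (0% of all 10547 genes tested), and 3 had an unadjusted p under 0.05. For H3K36me3 bodies 0 of 142 were called (0% of 13688 genes) and 10 had an unadjusted p under 0.05. At promoter windows limma called 0 of 64 members for H3K9me3 (0% of 5347 genes) and 0 of 110 for H3K36me3 (0% of 9948), with 3 and 4 under an unadjusted 0.05. Leaving out 1 library changed some of these counts. Without PC library 6 limma called Zfp639 and Zfp953 for H3K9me3 bodies. That fit called 47 genes higher and 345 lower in HC, of 8194 tested. At H3K9me3 promoter windows Zfp606 was called without PC library 2 or 6. Without PC library 3 it was called with Zfp831, Zfp872 and Zfp707. The fits without PC library 2, 3 and 6 called 41, 35 and 61 genes higher in HC. They called 213, 223 and 193 lower, of 4519, 4530 and 3903 tested. For H3K36me3 promoter windows 3 of 107, 7 of 101 and 4 of 102 members were called without PC library 4, 5 and 6. Zfp882 was called in each of these fits. Over all genes the same fits called 248, 255 and 304 higher in HC. They called 309, 294 and 205 lower, of 9459, 9121 and 8802 tested.

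For the promoter marks the limma counts were 0 of 135 members for H3K4me3 (0.0139% of 14379 genes called), 0 of 133 for H3K9ac (0.00729% of 13713), 0 of 132 for H3K27ac (0.0141% of 14192) and 0 of 36 for H3K27me3 (3.04% of 5399). Members with an unadjusted p under 0.05 numbered 1, 6, 10 and 1 in that order. Without PC library 2, H3K27me3 gave Zfp707 and Zfp959, and without PC library 8 Zfp648 and Zfp959. Over all genes these fits called 296 and 248 higher and 106 and 145 lower in HC, of 5108 and 5184 tested. File identifiers leave a doubt over which of the PC H3K27me3 lists is library 6 and which is 8, and the titles of HC H3K27ac library 5 and HC H3K27me3 library 3 carry an R that the labels do not explain. These counts do not show that members were equal in HC and PC. The median standard error of a member's difference was 11.3 percentage points for H3K9me3 bodies and 7.71 for H3K36me3 bodies, and the differences ranged from -56.8 to 26.8 and from -56.6 to 44.7 points. The median difference, HC minus PC, was -1.70 points over members and -3.19 over all genes tested for H3K9me3 bodies, and 0.791 over members and 2.05 over all genes for H3K36me3 bodies. An unadjusted p under 0.05 was found for 2.56% of members and 6.96% of all genes for H3K9me3 bodies, and for 7.04% and 6.30% for H3K36me3 bodies. The genes for the partners of KRAB proteins, a list of 30 that includes Trim28, Setdb1 and Setd2, gave 0 calls in any fit. Of those 30, H3K36me3 marked the bodies of 29 and H3K4me3 the promoters of 26 in all 5 libraries, and only Atf7ip had H3K9me3 over its body in all 5.

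Zfp648 came closest to a call. Its body (chr1:154201187-154213209, an isolated gene) had 0% H3K36me3 in both HC libraries and 39.9%, 66.5% and 63.3% in PC. H3K4me3 covered 0% of its promoter window in both HC libraries and 49.6%, 40% and 35% in PC, and H3K36me3 covered 0% of the window in both HC libraries and 80%, 60.4% and 80.3% in PC. The H3K4me3 difference, HC minus PC, was -41.5 points (SE 5.38, limma adjusted p = 0.135), and the H3K36me3 body difference -56.6 points (SE 11.3, limma adjusted p = 0.267). H3K9ac was 0% in both HC libraries and 50%, 10% and 10% in PC. H3K27ac remained in HC, at 29.6% and 55%, against 69.7%, 64.7% and 54.6% in PC. The polycomb mark H3K27me3 covered its body by 46.6% in both HC libraries and by 26.6%, 33.3% and 63.3% in PC, so those groups overlapped. Over the whole body, H3K4me3 covered 8.32% and 4.99% in HC and 38.3%, 31.6% and 18.3% in PC, so the mark was present in HC outside the promoter window. The H3K36me3 difference in the window was -73.6 points (SE 9.86, limma adjusted p = 0.482). Zfp648 was called for H3K4me3 without PC library 1, with windows of 1 kb and with no filter on low values, and for H3K36me3 windows without PC library 5 and with no filter.

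Zfp750, a regulator of epidermal differentiation, had the opposite direction. H3K36me3 covered 50.5% and 28.7% of its body (chr11:121510976-121519342) in HC and 12.3%, 2.69% and 0% in PC, a difference of 34.6 points (SE 8.53, limma adjusted p = 0.378). Tbcd overlaps this body, so the coverage cannot be assigned to Zfp750 alone. H3K27ac covered 5% and 56.5% of its promoter window in HC and 0% in all 3 PC libraries, and H3K4me3 25% and 0% in HC and 0% in PC. Epidermal markers moved in the same direction: Krt5, Krt14, Trp63 and Trim29 summed to 115 and 42.9 points of H3K4me3 promoter coverage in the HC libraries, with Trp63 at 0, and all 4 were at 0 in the PC libraries. For H3K27ac the same sum was 5 and 50.4 points in HC and 5, 0 and 5 points in PC. Their part in the Zfp750 values was not tested.

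**Figure D5:**
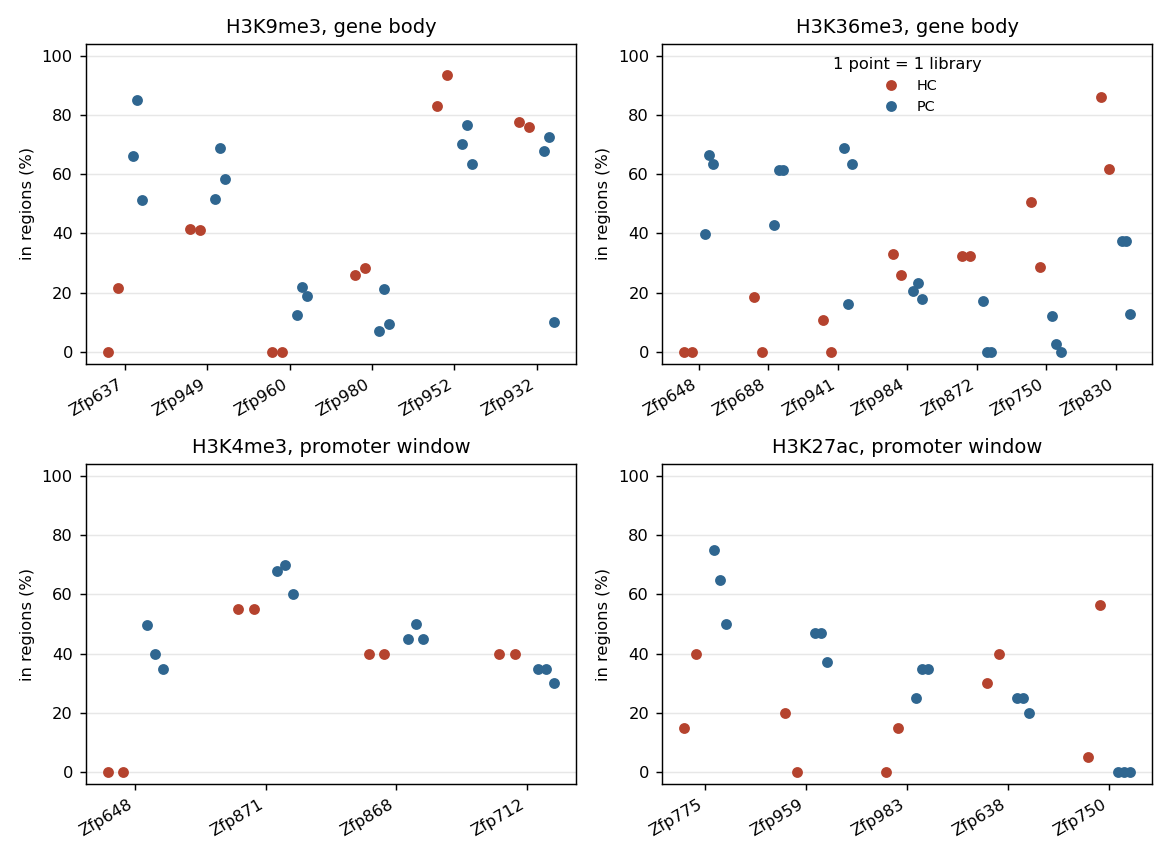
Percent of the gene body (top: H3K9me3, left, and H3K36me3, right) or of the promoter window (bottom: H3K4me3, left, and H3K27ac, right) in regions for selected members whose HC and PC values do not overlap; each point is 1 library, HC left of PC. Zfp648 is at 0% in both HC libraries for H3K36me3 and H3K4me3, Zfp750 is at 0% for H3K27ac in all 3 PC libraries, and for Zfp984 the lowest HC value, 26.1%, stands close to the highest PC value, 23.3%.

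Few members were marked in all libraries of either HC or PC while the other cell type had no marked library. Percents in brackets give the same count over all genes with all 5 libraries. Here and below, counts with 1 library left out are for members alone. No share over all genes stands beside those counts, so they are not read as a trait of the members. For H3K9me3 bodies there was 1 on the HC side, Zfp980 (0.21% of all 21887 genes), and 1 on the PC side, Zfp637 (0.402%). Zfp637 lay 0% and 21.5% in H3K9me3 in HC and 66.2%, 85.1% and 51.3% in PC, a difference of -56.8 points (SE 17.3, limma adjusted p = 0.528), while its H3K36me3 was 66.2% in both HC libraries and 66.2%, 81.1% and 66.2% in PC. Zfp980 lay 26.1% and 28.5% in H3K9me3 in HC and 7.11%, 21.3% and 9.48% in PC, so its HC values passed the 25% limit by a few points. Without HC library 2 or HC library 5 the HC count was 3, and the PC count was 3 without HC library 2 and 2 without PC library 6.

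For H3K36me3 bodies 3 members were on the HC side (0.411% of all genes), Zfp984, Zfp872 and Zfp750, and 2 on the PC side (0.886%), Zfp648 and Zfp688. Zfp872 had 32.4% in both HC libraries and 17.2%, 0% and 0% in PC. Zfp688 had 18.7% and 0% in HC and 43%, 61.6% and 61.6% in PC. Without PC library 5 the PC count was 5. Zfp984, at 33% and 26.1% in HC and 20.6%, 23.3% and 17.9% in PC, straddled the limit narrowly. Zfp830, a factor of DNA repair, was not in that count, with 86.1% and 61.7% in HC and 37.3%, 37.3% and 12.9% in PC.

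At promoters no member had H3K4me3 on the HC side (0.11% of all genes) and Zfp648 had it on the PC side (0.169%). For H3K9ac there was none on the HC side (0.283%) and 2, Zfp648 and Zfp976, on the PC side (0.516%). H3K27ac was on the HC side at Zfp750 alone (0.361%) and on the PC side at Zfp937 and Zfp994 (0.827%), where the count was 8 without HC library 7 and 5 without PC library 5. H3K27me3 was on the HC side at 2 members, Zfp819 and Zfp959 (1.16%), and on the PC side at Zfp703 (0.498%), a co-repressor gene. Zfp819 had 20% and 60% H3K27me3 in HC and 0% in all PC libraries, and Zfp703 0% in both HC libraries and 41.7%, 8.31% and 78.4% in PC. Without HC library 2 or PC library 8 the PC count for H3K27me3 was 3, and without HC library 3 the HC count was 4, while for H3K4me3 the HC count was 1 without HC library 5 and the PC count 2 without HC library 2. As shares of the 170 members, the HC side was 0.588% for H3K9me3, 1.76% for H3K36me3, 0.588% for H3K27ac and 1.18% for H3K27me3. The PC side was 0.588% for H3K9me3, 1.18% for H3K36me3, 0.588% for H3K4me3, 1.18% for H3K9ac, 1.18% for H3K27ac and 0.588% for H3K27me3. Each share rests on 3 genes or fewer. The H3K27ac count of 8 sets PC against HC library 5 alone, a list of 46.1 Mb.

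A looser reading counted members whose HC and PC values did not overlap at all. In H3K9me3 bodies HC was above PC for 8 of 117 members (6.84%, where 2.43% of all genes tested were) and below for 12 (10.3%, where 24.1% of all genes were). In H3K36me3 bodies HC was above for 15 of 142 (10.6%, all genes 8.19%) and below for 9 (6.34%, all genes 9%). For H3K9ac HC was above for 2 of 133 (1.5%, all genes 4.4%) and below for 19 (14.3%, all genes 10.4%). For H3K27ac HC was above for 2 of 132 (1.52%, all genes 6.53%) and below for 23 (17.4%, all genes 13%). For both acetylation marks HC was thus more often below than above PC, in members and in all genes. The split was more one-sided in members, a gap that was not tested. H3K9ac lists covered 29.8 to 35 Mb in HC and 33.1 to 54.2 Mb in PC, and H3K27ac lists 46.1 to 91.7 Mb in HC and 70.2 to 98.4 Mb in PC. For H3K9ac the median difference, HC minus PC, was -2.5 points over members and -1.79 over all genes tested. In fits at equal covered length it was 0.625 and 0.417. For H3K27ac it was -4.96 and -2.5 points, and at equal covered length -3.33 and -0.833. The part of covered length in the counts of non-overlapping members was not tested.

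Individual members whose HC and PC values did not overlap included these. For H3K9me3 promoters, Zfp619 had 0% in both HC libraries and 60%, 45.9% and 100% in PC. Zfp800 had 0% and 60% in HC and 80%, 99.2% and 99.2% in PC. For H3K9me3 bodies, Zfp952 had 83.1% and 93.5% in HC and 70.1%, 76.6% and 63.6% in PC, and Zfp949 had 41.6% and 41.1% in HC and 51.5%, 68.9% and 58.5% in PC. Zfp960 had 0% in both HC libraries and 12.5%, 21.9% and 18.8% in PC. For H3K27ac promoters, Zfp775 had 15% and 40% in HC and 75%, 65% and 50% in PC, Zfp959 had 20% and 0% in HC and 47.1%, 47.1% and 37.1% in PC, and Zfp638 had 30% and 40% in HC and 25%, 25% and 20% in PC. Zfp871 had 55% H3K4me3 in both HC libraries and 67.8%, 70% and 60% in PC, and Zfp712 had 40% in both HC libraries and 35%, 35% and 30% in PC. H3K36me3 reached into the promoter window of Zfp810 by 100% and 45.4% in HC and 0%, 20% and 14.7% in PC. None of these gaps passed the adjusted threshold in limma.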

How the data were processed

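The authors deposited region coordinates (chromosome, start, end) per library, with no score or count, so sequencing depth is unknown. The build mm10, FastQC and Picard are named per the submitters' processing notes. Neither aligner nor region caller is named: not given in the sources used here. Of 41 samples, 30 with a per-library list were used and 11 IgG samples were not analysed here. Lists intersected by group were not used.

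Coverage of gene bodies and promoter windows was computed with Python 3.11.15 (numpy 2.4.6, pandas 2.3.3) over 21887 RefSeq genes. The annotated 5′ end was not used as planned, since strand was known for 79.9% of genes, below the 80% required; the end with H3K4me3 was used. HC minus PC was fitted with limma 3.58.1 (trend and robust, R 4.3.3), 1 fit per mark and measure, on genes above 0 in 2 or more libraries, calls at a Benjamini-Hochberg adjusted p of 0.05; the procedure was tested on simulated data. Alternatives were log2 of percent plus 1, no filter, plain limma, equal covered length, other windows, limits and cluster distances, leaving out each library, and the replicate block. Sequences were aligned with Biopython 1.88.

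Named members were those called, those in 1 cell type only, the 6 highest per body mark and in both, the 3 widest non-overlapping gaps per fit and direction, and members with a known role. Not all members chosen by these rules are described here. The members and all gene lists were chosen with earlier results of these data known, and the classes by both body marks after the values were seen, as were the printed sequences. A planned count of finger and KRAB patterns in proteins was not run, because no protein table was used here.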

Additional observations from a re-analysis of the deposited data

How the results depend on the processing

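Of 280 values recomputed for 33 counts and shares, 221 stayed within 1.5 times the reported value and 59 did not. Members called by limma, 0 in each fit of all libraries, became 3 (H3K36me3 promoters) and 1 (H3K4me3) with no filter. Over all 21887 genes those 2 fits called 50 and 22 higher and 74 and 30 lower in HC. With 1 kb windows members called became 1 (H3K36me3), 2 (H3K4me3), 1 (H3K9ac) and 1 (H3K27ac). In that order the fits called 123, 58, 65 and 28 genes higher and 55, 90, 165 and 93 lower in HC. They tested 6919, 13909, 13152 and 13590 genes. For H3K27me3 plain limma called 1 and both gene ends 2. Over all genes these called 248 and 238 higher and 67 and 66 lower in HC, of 5399 and 5751 tested. Leaving out 1 library gave 0 to 2 members for H3K9me3 bodies, 0 to 4 for H3K9me3 promoters, 0 to 7 for H3K36me3 promoters, 0 to 1 for H3K4me3 and 0 to 2 for H3K27me3, and 0 in each such fit of H3K36me3 bodies, H3K9ac and H3K27ac. Fits without an HC library assume that the lone HC library varies like the PC libraries. The no-filter fits of H3K9me3 and H3K27me3 promoters could not be fitted.

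Members marked in 1 cell type only moved as follows, with no count over all genes set beside these values. With equal covered length the counts were 2 for H3K9me3 in HC, 1 for H3K36me3 in HC, 0 for H3K4me3, H3K9ac and H3K27ac in PC, and for H3K27me3 1 in HC and 5 in PC. With a limit of 10% of the body, H3K9me3 gave 0 in HC and 2 in PC and H3K36me3 0 in HC. With 50%, H3K9me3 gave 0 in HC and 2 in PC, and H3K36me3 1 in HC and 1 in PC. A limit of 400 bp gave 0 for H3K27ac in HC. Windows of 1 kb gave 0 for H3K27ac in HC and for H3K9ac in PC, and for H3K27me3 1 in HC and 0 in PC. Both gene ends gave 1 in HC and 3 in PC for H3K27me3. Leaving out 1 library, the ranges were 1 to 3 in HC and 1 to 3 in PC for H3K9me3, 3 to 4 in HC and 2 to 5 in PC for H3K36me3, 0 to 1 in HC and 1 to 2 in PC for H3K4me3, 0 in HC and 2 to 3 in PC for H3K9ac, 1 in HC and 2 to 8 in PC for H3K27ac, and 2 to 4 in HC and 1 to 3 in PC for H3K27me3.

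Members marked in every library fell to 30 (H3K9me3) and 22 (both marks) at a 50% limit, and with equal covered length to 57 (H3K4me3), 58 (H3K9ac), 31 (H3K27ac) and 8 (H3K27me3). Both gene ends gave 30 for H3K27me3. The cause was not tested, beyond the loss of short regions under equal covered length. With the replicate block, possible for H3K9ac, 0 members were called, as without it. Genes with an unadjusted limma p under 0.05 went from 257 higher and 520 lower in HC to 924 and 665. Members went from 0 and 6 to 4 and 12. The median difference over all genes went from -1.79 to 0 points. Deviations correlated at -0.018 for number 2 and 0.0691 for number 3. Deviations of 2 HC libraries mirror each other, so these values cannot show whether shared numbers pair the libraries. No paired analysis was possible for the other marks because HC and PC shared fewer than 2 numbers. The annotated 5′ end and the limits for members in every library were alternatives chosen after seeing the data.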
